A study of Homo sapiens with 8 samples.

Results

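The RNA of 10 genes that copy or set silent chromatin was followed through 8 libraries of human skin fibroblasts. The genes were chosen by name for their function, as the rows of the deposited table whose gene name is DNMT1, UHRF1, HELLS, DNMT3A, DNMT3B, EZH2, EED, SUZ12, SUV39H1 or CBX5. The choice was made with earlier results of these data known, so the set is not independent of the values compared below. Each name matched 1 row, so the set holds 10 of the 58825 genes used. All 10 passed the filter on low values, among 16542 genes tested.

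In mammals DNA methylation sits mostly on CpG pairs, and after replication DNMT1 copies it onto the new strand where UHRF1 has bound the half-methylated site, with the remodelling ATPase HELLS opening the nucleosomes. DNMT3A and DNMT3B place methyl groups on sites that carried none. EZH2, EED and SUZ12 form the core of Polycomb repressive complex 2 (PRC2), which methylates histone H3 at lysine 27, while SUV39H1 methylates histone H3 at lysine 9 and CBX5 (HP1 alpha) reads that mark in constitutive heterochromatin. Several of these genes are read mainly in dividing cells, because newly made chromatin must be marked again after each round of DNA replication.

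The cells were BJ, a fibroblast line from human skin, in a derivative labelled BJ-HRAS. The 4 groups of 2 libraries were the SNORA13 knockout (KO) with 4-OHT, the KO without 4-OHT, the wild type (WT) with 4-OHT and the WT without 4-OHT. The KO clones were 66 and 69 and the WT clones 15 and 54, and each clone gave 1 library with (Z)-4-hydroxytamoxifen (4-OHT, 100 nM for 7 days) and 1 without. SNORA13 is a small nucleolar RNA of the H/ACA class, and 4-OHT is a ligand of the oestrogen receptor that is commonly used to switch on receptor fusion proteins. The labels do not describe the HRAS construct, every group shares it, and all libraries are from clones, so that genotype and any other difference between the 2 KO and the 2 WT clones cannot be told apart. The table names its columns by clone number with or without a minus sign, and the sign is read here as the absence of 4-OHT, which no label spells out.

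Library totals, as fitted from the deposited values, were 22.1 to 24.9 M reads. SNORA13 had 0 reads in the 4 KO libraries, where a count of 0 allows up to 0.930 to 0.982 RPKM (3 reads, counting error only), against 5 and 7 reads in WT clones 15 and 54 with 4-OHT and 6 and 4 without. All 8 fibroblast markers passed the filter, with summed levels of 1693 to 1974 RPKM in KO with 4-OHT, 3729 to 3900 in KO without, 1814 to 1821 in WT with 4-OHT and 3932 to 4152 in WT without. Of the epithelial markers 1 of 5 passed, with sums of at most 0.910 RPKM and with KRT5 and KRT14 listed at 0. Of the endothelial markers 2 of 4 passed, with sums of 0.151 to 0.363 RPKM, and of the immune markers 2 of 5 passed, with sums of 7.87 to 15.4 RPKM that CD14 carried and with CD68 listed at 0. Of the melanocyte or neural markers 2 of 5 passed, with sums of 3.94 to 18.1 RPKM that MITF carried. The RNA of the signal recognition particle took 16.1% and 14.8% of reads in KO clones 66 and 69 with 4-OHT, 9.27% and 10.1% without, 9.72% and 15.4% in WT clones 15 and 54 with 4-OHT, and 9.18% and 9.58% without. HRAS itself stood at 360.1 and 332.3 RPKM in KO with 4-OHT, 203.7 and 199.6 in KO without, 279.2 and 300.6 in WT with 4-OHT and 257.6 and 236.0 in WT without. The part of these differences in the results that follow was not tested.

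Promoter sequences are shown for 6 of the genes, to put those whose response to 4-OHT differed between genotypes beside SUZ12, whose response did not pass that test. The windows run from 250 bases before to 50 bases after a RefSeq start site (GRCh38.p14), taken nearest to the start of the transcript that the table lists, and were found for all 10 genes. Capitals mark matches, on either strand, to a core of the E2F binding motif: the form TTCCCGC and its variants, which are TTGGCGC in one form, TTCGCGC in another form and TTGCCGC in the remaining form. The windows are chr19:10194904-10195203 on the minus strand for DNMT1, chr19:4909251-4909550 on the plus strand for UHRF1, chr10:94545538-94545837 on the plus strand for HELLS, chr7:148884242-148884541 on the minus strand for EZH2, chr11:86244503-86244802 on the plus strand for EED and chr17:31936757-31937056 on the plus strand for SUZ12, each printed 5′ to 3′ along its gene.
DNMT1: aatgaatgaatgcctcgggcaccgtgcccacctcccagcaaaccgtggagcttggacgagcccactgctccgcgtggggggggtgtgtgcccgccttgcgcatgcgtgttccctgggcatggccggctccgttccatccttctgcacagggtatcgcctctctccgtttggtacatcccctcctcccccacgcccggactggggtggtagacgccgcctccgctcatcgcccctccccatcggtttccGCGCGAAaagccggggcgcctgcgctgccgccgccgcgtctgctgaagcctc
UHRF1: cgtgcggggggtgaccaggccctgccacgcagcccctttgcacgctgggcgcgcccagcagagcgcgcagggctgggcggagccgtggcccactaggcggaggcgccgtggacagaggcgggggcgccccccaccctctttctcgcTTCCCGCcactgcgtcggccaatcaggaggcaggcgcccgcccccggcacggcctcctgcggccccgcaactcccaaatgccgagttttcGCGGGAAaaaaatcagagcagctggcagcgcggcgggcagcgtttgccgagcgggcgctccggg
HELLS: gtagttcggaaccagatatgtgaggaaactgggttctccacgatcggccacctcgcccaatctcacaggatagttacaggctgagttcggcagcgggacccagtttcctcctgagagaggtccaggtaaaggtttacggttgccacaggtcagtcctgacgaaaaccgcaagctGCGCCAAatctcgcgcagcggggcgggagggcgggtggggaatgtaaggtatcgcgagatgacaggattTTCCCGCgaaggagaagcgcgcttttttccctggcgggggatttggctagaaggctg
EZH2: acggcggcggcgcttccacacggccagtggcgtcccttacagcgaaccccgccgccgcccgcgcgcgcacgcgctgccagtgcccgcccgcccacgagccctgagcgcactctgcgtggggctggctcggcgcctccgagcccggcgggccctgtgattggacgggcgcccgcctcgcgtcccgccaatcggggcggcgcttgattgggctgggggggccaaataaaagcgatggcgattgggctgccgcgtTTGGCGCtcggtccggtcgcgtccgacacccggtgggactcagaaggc
EED: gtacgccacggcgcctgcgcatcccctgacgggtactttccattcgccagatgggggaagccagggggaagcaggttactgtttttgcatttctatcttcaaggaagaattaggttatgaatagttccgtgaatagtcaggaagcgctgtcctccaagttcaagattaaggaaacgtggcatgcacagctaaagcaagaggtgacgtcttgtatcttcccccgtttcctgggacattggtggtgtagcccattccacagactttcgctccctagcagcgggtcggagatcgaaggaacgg
SUZ12: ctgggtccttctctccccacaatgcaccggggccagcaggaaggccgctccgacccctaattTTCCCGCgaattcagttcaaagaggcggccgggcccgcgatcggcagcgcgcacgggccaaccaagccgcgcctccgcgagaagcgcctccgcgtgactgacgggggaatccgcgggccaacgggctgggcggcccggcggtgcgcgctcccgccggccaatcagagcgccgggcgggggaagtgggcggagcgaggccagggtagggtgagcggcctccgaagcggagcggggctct

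An E2F core was found in 5 of the 10 windows, against 13% of the 35116 promoter windows of that length in the RefSeq table. UHRF1 and HELLS each held 2 matches, DNMT1, EZH2 and SUZ12 held 1, and the windows of EED, SUV39H1, CBX5, DNMT3A and DNMT3B held none. The matches of DNMT1, UHRF1, HELLS and EZH2 closest to the start site began at positions -2, -14, -7 and 2 counted from it, and that of SUZ12 began at -188. How near the start site matches lie over all windows was not counted, so these positions have no background to be read against. The pentamer CCAAT, searched on both strands, was in 7 of the 10 windows against 34.6% of all, with 4 matches in EZH2. The core of the cell cycle homology region, TTTGAA on either strand, was in 1 of the 10, SUZ12, against 15.2% of all. GC content ran over the 6 windows shown at 68.3% for DNMT1, 74.0% for UHRF1, 57.7% for HELLS, 74.7% for EZH2, 52.3% for EED and 73.0% for SUZ12. The shares over all windows were not matched for GC content. These are letters in a window, not binding sites, and the absence of a match says only that these letters are not in it.

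The levels of the 10 genes, as RPKM divided by TMM scaling factors and averaged over the 8 libraries, ran in the order CBX5 20.2, DNMT1 15.9, UHRF1 14.7, SUZ12 10.1, EED 5.74, HELLS 4.88, SUV39H1 2.68, EZH2 2.02, DNMT3A 0.998 and DNMT3B 0.338. RPKM divides reads by transcript length and library total, so levels of different genes can be set side by side only as far as the listed transcript fits. Among neighbours in this order the ranges over libraries overlapped for all pairs except SUZ12, at 8.75 to 11.4 RPKM, and EED, at 3.36 to 8.32 RPKM, and except DNMT3A, at 0.553 to 1.37 RPKM, and DNMT3B, at 0.217 to 0.416 RPKM. Behind these values stood 21 to 42 reads a library for DNMT3B, 123 to 231 for EZH2 and 4564 to 6077 for CBX5, so that DNMT3B carries the largest counting error. EZH2 is measured per length of a transcript annotated for nonsense-mediated decay, of 3641 bases, of which 2630 are shared with coding transcripts, so its level relative to other genes is uncertain. The listed transcripts of HELLS and EED cover 36.4% and 61.2% of the exon bases of their coding transcripts, against 83.8% or more for the other genes. Their levels relative to other genes are therefore uncertain too. HELLS shares its locus and strand with TBC1D12. DNMT1 overlaps the protein-coding gene S1PR2 on the same strand, and the values of S1PR2 were not examined.

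On GRCh38, by GENCODE release 29, the maintenance genes are DNMT1 at chr19:10133345-10231286 (minus strand), UHRF1 at chr19:4903080-4962154 (plus strand) and HELLS at chr10:94501434-94613905 (plus strand). The de novo enzymes are DNMT3A at chr2:25227855-25342590 (minus strand) and DNMT3B at chr20:32762385-32809356 (plus strand). The PRC2 subunits are EZH2 at chr7:148807383-148884321 (minus strand), EED at chr11:86244544-86278813 (plus strand) and SUZ12 at chr17:31937018-32001045 (plus strand). The lysine 9 enzyme and its reader are SUV39H1 at chrX:48695554-48709012 (plus strand) and CBX5 at chr12:54230940-54280133 (minus strand). SUV39H1 and CBX5 each overlap an antisense gene, with 0 to 1 reads and 0 to 4 reads a library in the table.

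**Figure D1:**
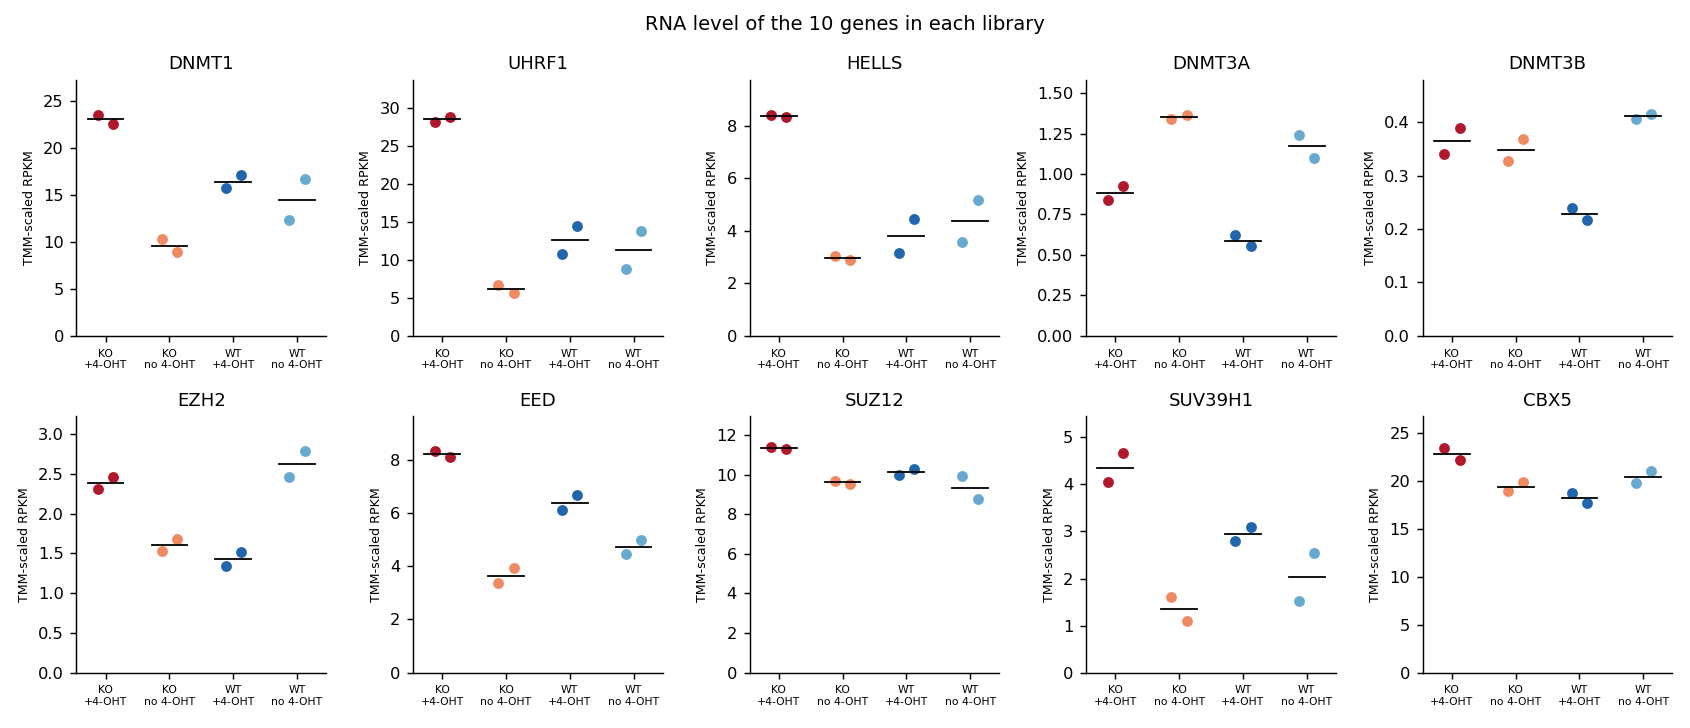
TMM-scaled RPKM (vertical axes, from 0) of the 10 genes in each library, with 1 point per clone and a bar at the mean of the 2 clones, for KO with 4-OHT, KO without, WT with 4-OHT and WT without. UHRF1 stands at 28.2 and 28.8 in KO with 4-OHT, above the 6 other libraries at 5.64 to 14.5, while EZH2 is as high in WT without 4-OHT as in KO with it.

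The response to 4-OHT in KO clones was broad. Of the 10 genes 7 rose, DNMT3A fell, and SUZ12 and DNMT3B did not pass the test. The changes ran from 4.58-fold for UHRF1 through 3.12-fold for SUV39H1, 2.77-fold for HELLS, 2.39-fold for DNMT1 and 2.23-fold for EED to 1.46-fold for EZH2 and 1.18-fold for CBX5. Here 55.7% of all genes tested were called, 27.9% as higher and 27.8% as lower (limma, adjusted p under 0.05). The groups did not overlap for 9 of the 10, and for 80.8% of all genes tested. The median log2 difference was 0.85 over the 10 genes and -0.02 over all genes tested. More cells that read a gene and more RNA of it per cell cannot be told apart in these bulk samples.

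In WT clones 4-OHT went with another pattern. Only EED rose, by 1.35-fold, while DNMT3A fell 1.85-fold, EZH2 fell 1.78-fold and DNMT3B fell 1.56-fold, and 6 genes did not pass the test. Of all genes tested 48.9% were called in this comparison, 24.7% as higher and 24.2% as lower, so 4 of 10 is no larger a share than the background. The groups did not overlap for 7 of the 10, and for 72.7% of all genes tested. The median log2 difference was -0.02 over the 10 genes and -0.01 over all genes tested.

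**Figure D2:**
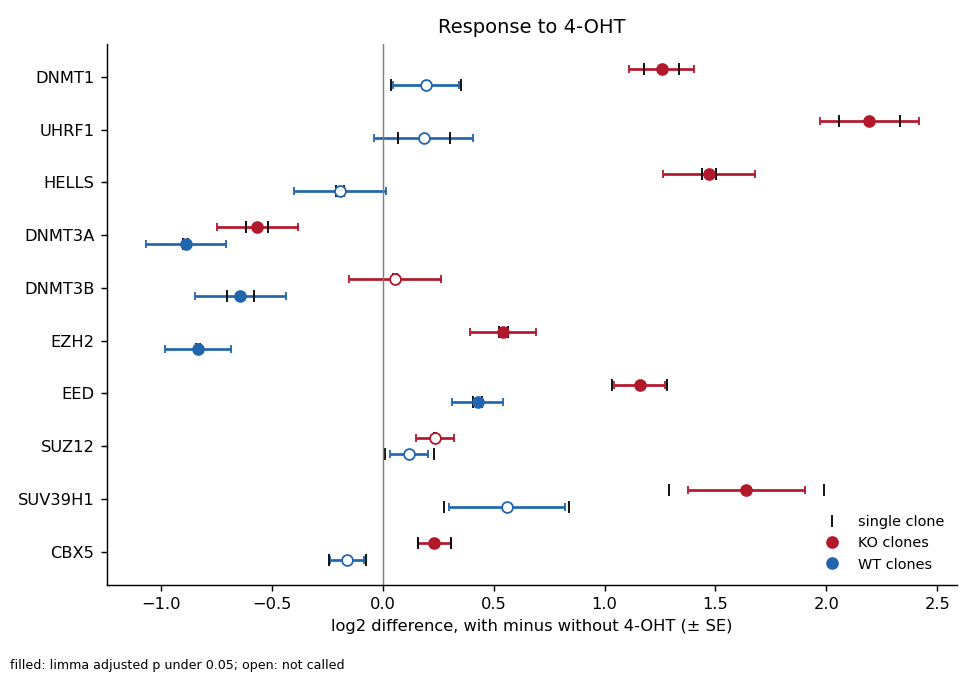
Log2 difference with minus without 4-OHT on the log2(RPKM + 0.1) scale (horizontal axis) for each gene in KO clones (red) and WT clones (blue), with the standard error of the fit as a bar and the 2 single clones as ticks. Filled points passed limma's adjusted p of 0.05. EZH2 lies at 0.54 in KO clones and at -0.83 in WT clones.

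The 3 genes of maintenance methylation rose in KO clones and did not pass the test in WT clones. DNMT1, the maintenance methyltransferase, had 23.5 and 22.6 RPKM in KO clones 66 and 69 with 4-OHT, against 10.3 and 8.90 RPKM in the same clones without. In WT clones 15 and 54 it had 15.8 and 17.1 RPKM with 4-OHT, against 12.3 and 16.7 RPKM without. The KO groups were well apart, whereas the WT groups overlapped. The log2 difference was 1.26 ± 0.15 (SE) in KO clones (limma adjusted p = 0.00029) and 0.20 ± 0.15 in WT clones (adjusted p = 0.309). The WT result depended on 1 library, since the difference was 0.41 without WT clone 54 lacking 4-OHT.

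UHRF1, which recruits DNMT1 to half-methylated sites, had 28.2 and 28.8 RPKM in KO clones with 4-OHT, against 6.70 and 5.64 RPKM without. In WT clones 15 and 54 it had 10.8 and 14.5 RPKM with 4-OHT, against 8.78 and 13.9 RPKM without. The KO libraries with 4-OHT were the highest of the 8 and the KO libraries without it the lowest. UHRF1 rose by 2.19 ± 0.22 (log2, SE) in KO clones (limma adjusted p = 0.000151), and its WT difference was 0.18 ± 0.22 (adjusted p = 0.53).

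HELLS, the chromatin remodeller of the SNF2 family that maintenance methylation needs, had 8.40 and 8.35 RPKM in KO clones with 4-OHT, against 3.03 and 2.88 RPKM without. In WT clones it had 3.15 and 4.47 RPKM with 4-OHT, against 3.57 and 5.19 RPKM without, and these groups overlapped. HELLS rose by 1.47 ± 0.21 (log2, SE) in KO clones (limma adjusted p = 0.000783), and its WT difference was -0.19 ± 0.21 (adjusted p = 0.481). TBC1D12, whose locus overlaps on the same strand, gave -0.34 ± 0.18 in KO clones (adjusted p = 0.145) and -0.04 ± 0.18 in WT clones (adjusted p = 0.86).

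The 2 de novo enzymes were low throughout. DNMT3A had 0.841 and 0.924 RPKM in KO clones with 4-OHT, against 1.34 and 1.37 RPKM without. The WT clones had 0.620 and 0.553 RPKM with 4-OHT, against 1.24 and 1.10 RPKM without. All 4 libraries with 4-OHT lay below all 4 without. DNMT3A fell by 0.57 ± 0.18 (log2, SE) in KO clones (limma adjusted p = 0.0314) and by 0.89 ± 0.18 in WT clones (adjusted p = 0.00548). The KO call was lost without any 1 of the 4 KO libraries, at adjusted p of 0.0731 to 0.13, while the WT call was kept.

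DNMT3B had 0.342 and 0.389 RPKM in KO clones with 4-OHT, against 0.328 and 0.368 RPKM without. WT clones held it at 0.239 and 0.217 RPKM with 4-OHT, against 0.407 and 0.417 RPKM without. Only the WT pair was apart, with 26 and 21 reads with 4-OHT against 42 and 41 reads without. DNMT3B fell by 0.64 ± 0.21 (log2, SE) in WT clones (limma adjusted p = 0.0349), a call that ended with the clone as a block (adjusted p = 0.058) and without any 1 of the 4 WT libraries (0.0823 to 0.121) or of the 4 KO libraries (0.0524 to 0.0565). In KO clones the difference was 0.06 ± 0.21 (adjusted p = 0.838).

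Within PRC2 the catalytic subunit, the reader and the scaffold differed. EZH2, the methyltransferase itself, had 2.32 and 2.47 RPKM in KO clones with 4-OHT, against 1.54 and 1.69 RPKM without. In WT clones it had 1.34 and 1.52 RPKM with 4-OHT, against 2.46 and 2.80 RPKM without. The 2 genotypes thus moved in opposite directions, both without overlap. EZH2 rose by 0.54 ± 0.15 (log2, SE) in KO clones (limma adjusted p = 0.0165) and fell by 0.83 ± 0.15 in WT clones (adjusted p = 0.00294). The rise in KO clones missed the threshold without clone 66 or clone 69 with 4-OHT (adjusted p = 0.052 and 0.0841) and without clone 66 lacking 4-OHT (0.0904), while the fall in WT clones was kept.

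EED, the subunit that binds trimethylated lysine 27 and spreads the mark, had 8.32 and 8.13 RPKM in KO clones with 4-OHT, against 3.36 and 3.92 RPKM without. The WT clones had 6.10 and 6.66 RPKM with 4-OHT, against 4.45 and 5.0 RPKM without. Both genotypes were higher with 4-OHT, with no overlap. EED rose by 1.16 ± 0.12 (log2, SE) in KO clones (limma adjusted p = 0.000138) and by 0.43 ± 0.12 in WT clones (adjusted p = 0.0182). The WT call was lost without clone 15 lacking 4-OHT (adjusted p = 0.0812) and without clone 54 with it (0.0935).

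SUZ12, the scaffold on which the complex assembles, varied least between groups of the PRC2 core. It had 11.4 and 11.3 RPKM in KO clones with 4-OHT, against 9.70 and 9.55 RPKM without, and 9.98 and 10.3 RPKM in WT clones with 4-OHT, against 9.92 and 8.75 RPKM without. The KO difference of 0.23 ± 0.09 (log2, SE) lay at the threshold (limma adjusted p = 0.0506), and the WT difference was 0.12 ± 0.09 (adjusted p = 0.291). With limma-voom on recovered reads, with a pseudocount of 1 or with the 4 KO libraries alone the KO difference passed (adjusted p = 0.037, 0.0492 and 0.0338). SUZ12P1, a partial copy of the gene with 39 to 98 reads a library, moved the other way, by -1.003 ± 0.14 in KO clones (adjusted p = 0.000675) and -0.52 ± 0.14 in WT clones (adjusted p = 0.0174), and how reads were shared between the 2 copies is not known.

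SUV39H1, an enzyme of histone H3 lysine 9 trimethylation, had 4.05 and 4.66 RPKM in KO clones with 4-OHT, against 1.60 and 1.10 RPKM without. WT clones held it at 2.81 and 3.10 RPKM with 4-OHT, against 1.52 and 2.54 RPKM without. All 4 libraries with 4-OHT lay above all 4 without, and WT clones 15 and 54 without 4-OHT were far from each other. SUV39H1 rose by 1.64 ± 0.26 (log2, SE) in KO clones (limma adjusted p = 0.00137), and the WT difference of 0.56 ± 0.26 did not pass (adjusted p = 0.117), though it did without WT clone 54 lacking 4-OHT (0.91, adjusted p = 0.0196).

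CBX5, the heterochromatin protein that binds methylated lysine 9, had 23.5 and 22.2 RPKM in KO clones with 4-OHT, against 18.9 and 19.9 RPKM without. In WT clones it had 18.7 and 17.7 RPKM with 4-OHT, against 19.8 and 21.0 RPKM without. The shifts were small and of opposite sign, and neither pair overlapped. CBX5 rose by 0.23 ± 0.08 (log2, SE) in KO clones (limma adjusted p = 0.0323), and the WT difference was -0.16 ± 0.08 (adjusted p = 0.118). The KO call ended with the clone as a block (adjusted p = 0.0571), with scaling to library totals alone (0.0884) and without any 1 of the 4 KO libraries (0.062 to 0.158).

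The 4-OHT response of KO clones minus that of WT clones was positive for all 10 genes and passed the test for 5. Of all genes tested 7.57% were called, 4.36% as higher and 3.22% as lower. UHRF1 had the largest difference of the 10, of 2.01 ± 0.31 (log2, SE; limma adjusted p = 0.0127), followed by HELLS at 1.66 ± 0.30 (0.0203), EZH2 at 1.38 ± 0.21 (0.0115), DNMT1 at 1.06 ± 0.21 (0.0265) and EED at 0.73 ± 0.16 (0.0406). SUV39H1, at 1.08 ± 0.37 (adjusted p = 0.123), had a difference as large as that of DNMT1 with a wider error and did not pass. DNMT3B at 0.70 ± 0.29 (0.188), CBX5 at 0.39 ± 0.11 (0.0695), DNMT3A at 0.32 ± 0.26 (0.478) and SUZ12 at 0.12 ± 0.12 (0.598) did not pass either. The median was 0.90 over the 10 genes and -0.01 over all genes tested. With 1 library left out, the number of the 10 genes called was 0 without KO clone 69 with 4-OHT (lowest adjusted p = 0.0625, 6 at an unadjusted p under 0.05) and 1 without KO clone 66 or 69 lacking 4-OHT or WT clone 15 with it. It was 2 without KO clone 66 with 4-OHT, 3 without WT clone 54 with it, 4 without WT clone 54 lacking it and 6 without WT clone 15 lacking it, where SUV39H1 passed as well (adjusted p = 0.0288). The log2 differences of the 5 stayed between 0.62 and 2.34 in every such fit.

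Read across genotypes, the same libraries show where the responses part. With 4-OHT the KO clones were above the WT clones for each of the 10 genes, with no overlap for any of the 10. Of all genes tested 61.4% had no overlap in this comparison, 30.0% with the KO clones above. The test was passed by 4, UHRF1 at 2.26-fold, HELLS at 2.20-fold, EZH2 at 1.63-fold and CBX5 at 1.25-fold, where 14.4% of all genes tested were called, 6.77% as higher and 7.63% as lower. The log2 differences of these 4 were 1.18 ± 0.22 (SE; limma adjusted p = 0.017), 1.14 ± 0.21 (0.0158), 0.71 ± 0.15 (0.0236) and 0.32 ± 0.08 (0.0325). Of the others DNMT1 had 0.49 ± 0.15 (0.0676), EED 0.36 ± 0.12 (0.0799), DNMT3A 0.52 ± 0.18 (0.104), DNMT3B 0.50 ± 0.21 (0.15), SUV39H1 0.54 ± 0.26 (0.212) and SUZ12 0.16 ± 0.09 (0.254). The median was 0.51 over the 10 genes and -0.01 over all genes tested. All 4 calls were lost without KO clone 66 (adjusted p = 0.0732 to 0.141), without KO clone 69 (0.0984 to 0.139) or without WT clone 15 with 4-OHT (0.0863 to 0.119), and those of EZH2 (0.0521) and CBX5 (0.123) were lost without WT clone 54 with it. Since the fit shares 1 estimate of the spread, libraries outside the comparison counted too. The CBX5 call was lost without KO clone 66 or 69 lacking 4-OHT (adjusted p = 0.0651 and 0.0653), and DNMT1 passed without WT clone 15 or 54 lacking 4-OHT (0.0178 and 0.0179).

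Without 4-OHT the difference ran mostly the other way. EZH2 was lower in KO clones, by 0.67 ± 0.15 on the log2 scale or 1.59-fold (limma adjusted p = 0.0437), and it was the only one of the 10 to pass, where 6.57% of all genes tested were called, 2.84% as higher and 3.73% as lower. UHRF1 had -0.83 ± 0.22 (adjusted p = 0.0695), DNMT1 -0.58 ± 0.15 (0.0628), SUV39H1 -0.54 ± 0.26 (0.25), HELLS -0.53 ± 0.21 (0.171) and EED -0.37 ± 0.12 (0.102). DNMT3B at -0.19 ± 0.21 (0.598), CBX5 at -0.07 ± 0.08 (0.599), SUZ12 at 0.05 ± 0.09 (0.774) and DNMT3A at 0.20 ± 0.18 (0.544) were closest to 0. The groups did not overlap for 7 of the 10, and for 56.3% of all genes tested. The median was -0.45 over the 10 genes and -0.002 over all genes tested. The EZH2 call was lost without KO clone 66, KO clone 69 or WT clone 54 lacking 4-OHT (adjusted p = 0.199, 0.174 and 0.154) and without any 1 of the 4 libraries with 4-OHT (0.0583 to 0.0809), while without WT clone 15 lacking 4-OHT DNMT1 (-0.79, adjusted p = 0.0111) and UHRF1 (-1.16, 0.0129) passed as well.

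**Figure D3:**
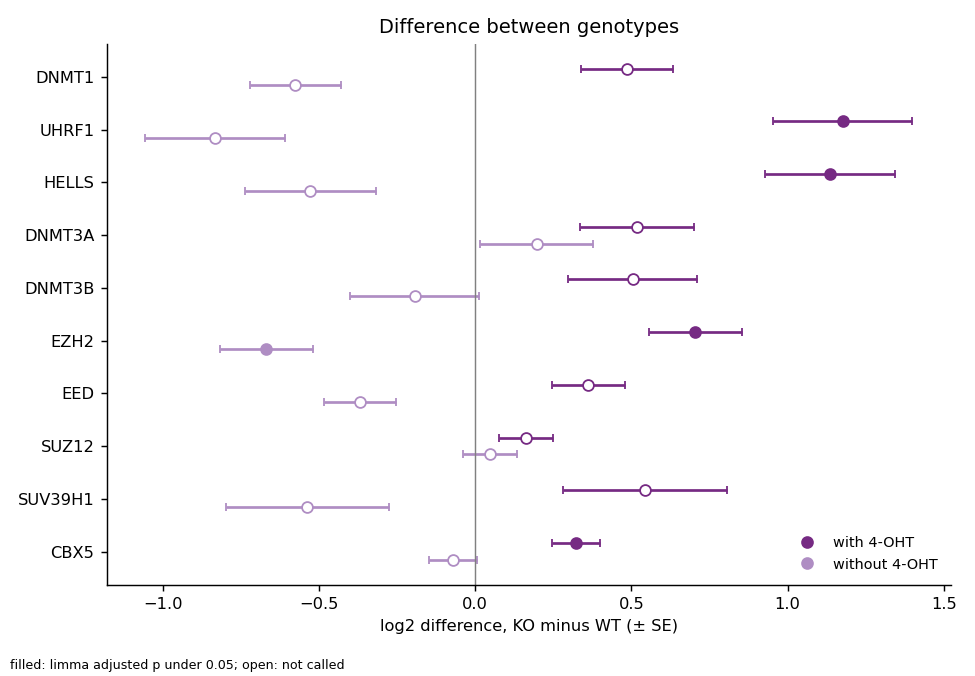
Log2 difference KO minus WT (horizontal axis) for each gene with 4-OHT (dark) and without 4-OHT (light), with the standard error of the fit. With 4-OHT the 10 points lie between 0.16 and 1.18, and without it between -0.83 and 0.20, and filled points passed limma's adjusted p of 0.05.

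The WT clones without 4-OHT, with 1 library each, differed from each other in several of the 10 genes. Clone 15 was below clone 54 for DNMT1 (12.3 and 16.7 RPKM), UHRF1 (8.78 and 13.9), HELLS (3.57 and 5.19) and SUV39H1 (1.52 and 2.54). The median level of 14 proliferation genes (MKI67, PCNA, CDK1, CCNA2 and others) was 14.7 RPKM in clone 15 and 21.6 in clone 54. DNMT3A and SUZ12 were higher in clone 15, at 1.24 and 1.10 RPKM and at 9.92 and 8.75 RPKM in clones 15 and 54. How many of all genes differ this much between these libraries was not counted, and the part of cell division was not tested.

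Genes of cell division were read beside the members. The median level of the 14 proliferation genes was 30.8 and 31.9 RPKM in KO clones 66 and 69 with 4-OHT, 7.44 and 6.92 without, 13.2 and 16.7 in WT clones 15 and 54 with 4-OHT and 14.7 and 21.6 without. MKI67, a protein of dividing cells, had 13.9 and 13.7 RPKM in KO with 4-OHT, 2.33 and 2.06 in KO without, 5.82 and 6.15 in WT with 4-OHT and 5.02 and 6.94 in WT without. With 4-OHT 13 of the 14 rose in KO clones (median log2 2.05), and in WT clones 1 rose and 3 fell (median -0.01). In KO relative to WT clones 12 of the 14 were called higher with 4-OHT (median 0.89) and 13 were called lower without it (median -1.25). The difference of the responses passed for all 14 (median 2.09), where 7.57% of all genes tested passed, against 5 of the 10 chromatin genes (median 0.90). The part of cell division in the members' differences was not tested.

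Each gene's pattern over the 8 libraries was set against those of all other genes tested, by the root mean square difference of log2 values centred on the gene's own mean. The closest to DNMT1 was RRM1, a subunit of ribonucleotide reductase (0.063), and the closest to UHRF1 was NCAPG2, a subunit of condensin II (0.079). HELLS had TMPO (0.052), EZH2 had HMGN2 (0.077), and EED had GSTCD (0.080). SUZ12 had METTL26 (0.034), CBX5 had RFXANK (0.047), DNMT3A had RINL (0.063), DNMT3B had RCBTB2 (0.068) and SUV39H1 had C9orf40 (0.118). Among the 10 genes the closest pairs were SUZ12 and CBX5 (0.127) and DNMT1 and EED (0.157), and DNMT3A and UHRF1 were the furthest apart (1.08). The measure is small for any 2 genes that vary little. SUZ12 and CBX5 had WT responses of opposite sign (0.12 and -0.16), neither of them called. The subunits of PRC2 were not each other's nearest, with 0.497 between EZH2 and EED, 0.371 between EZH2 and SUZ12 and 0.364 between EED and SUZ12.

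Other genes of the same pathways were read from lists chosen by function, also with earlier results of these data known. Of these lists 86 genes besides the 10 were tested. With 4-OHT 29 rose and 19 fell in KO clones, and 12 rose and 20 fell in WT clones, with medians of -0.06 and -0.04. In KO relative to WT clones 14 were called higher and 3 lower with 4-OHT (median 0.04), and 1 was called higher and 3 lower without it (median 0.02). The difference of the responses passed for 9, each with a positive difference, with a median over the 86 of 0.00. As shares of the 86, 55.8% were called in KO clones, 37.2% in WT clones, 19.8% for KO minus WT with 4-OHT, 4.65% without it and 10.5% for the difference of the responses, against 55.7%, 48.9%, 14.4%, 6.57% and 7.57% of all genes tested. The median of the 10 genes in that comparison was 0.90, and its contrast with the lists was not tested.

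Around maintenance methylation, CDCA7 and CDCA7L, partners or relatives of the HELLS remodeller, were higher in KO than in WT clones with 4-OHT, by 2.11 ± 0.44 (log2, SE; limma adjusted p = 0.0222) and 0.58 ± 0.08 (0.00844). CDCA7L also passed for the difference of the responses (0.52 ± 0.12, adjusted p = 0.0395). USP7, the deubiquitinase that stabilises DNMT1, rose with 4-OHT in both genotypes, by 0.37 ± 0.09 in KO clones (adjusted p = 0.00909) and 0.45 ± 0.09 in WT clones (0.00438). UHRF2, the paralogue of UHRF1, had 0.20 ± 0.09 in KO clones (adjusted p = 0.0993) and 0.22 ± 0.09 in WT clones (0.0901). Of the 6 tested genes of cytosine oxidation and demethylation 2 fell in KO clones and 3 fell in WT clones, and none rose. These are 33.3% and 50% of the list, against 55.7% and 48.9% of all genes tested. TET1 fell in both, by 1.29 ± 0.17 in KO clones (adjusted p = 0.000507) and 1.27 ± 0.17 in WT clones (0.000748). TET2, TET3 and TDG did not pass in either genotype. IDH2, the mitochondrial enzyme that makes a cosubstrate of the TET enzymes, fell by 1.37 ± 0.09 in KO clones (adjusted p = 2.23e-05) and by 2.40 ± 0.09 in WT clones (3.65e-06), and these 2 responses differed (1.03 ± 0.13, adjusted p = 0.00636).

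Of the 12 tested genes of the PRC2 list 5 rose and 3 fell with 4-OHT in KO clones, and 2 rose and 5 fell in WT clones. These are 66.7% and 58.3% of the list, against 55.7% and 48.9% of all genes tested. EZH1, the paralogue of EZH2 found in resting cells as well, had 3.63 and 3.63 RPKM in KO clones with 4-OHT, 6.08 and 6.52 without, 5.37 and 4.88 in WT clones with 4-OHT and 7.55 and 7.31 without. It fell in both genotypes, by 0.78 ± 0.10 (log2, SE) in KO clones (limma adjusted p = 0.000387) and by 0.53 ± 0.10 in WT clones (0.00322). The ratio of EZH1 to EZH2 was 1.57 and 1.47 in KO clones with 4-OHT, 3.96 and 3.87 without, 3.99 and 3.22 in WT clones with 4-OHT and 3.07 and 2.62 without, a ratio that inherits the uncertain length of EZH2. PHF19, an accessory subunit that guides the complex to chromatin, rose by 1.32 ± 0.16 in KO clones (adjusted p = 0.000317), had -0.22 ± 0.16 in WT clones (0.275), and differed between responses by 1.55 ± 0.22 (0.00945). RBBP7 moved with EZH2, rising by 0.42 ± 0.09 in KO clones (adjusted p = 0.00606) and falling by 0.32 ± 0.09 in WT clones (0.0233). RBBP4, its close paralogue, fell in both, by 0.63 ± 0.08 (0.000432) and 0.49 ± 0.08 (0.00188).

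The PRC1 list, whose complexes bind or ubiquitinate Polycomb targets, held 20 tested genes, and 0 passed for the difference of the responses (limma, adjusted p under 0.05), with 5 at an unadjusted p under 0.05 and 1 called by limma-voom. With 4-OHT 5 rose and 3 fell in KO clones, and 5 rose and 4 fell in WT clones, which is 40% and 45% of the list, below the 55.7% and 48.9% of all genes tested. PHC2 rose by 2.25 ± 0.28 (log2, SE) in KO clones (adjusted p = 0.000393) and 2.33 ± 0.28 in WT clones (0.000464), and PCGF5 fell by 0.87 ± 0.12 (0.000685) and 1.06 ± 0.12 (0.000366). The PHC2 values rest on a listed length of 427 bases and on few reads. Without 4-OHT it had 12 and 15 reads in KO clones 66 and 69 and 15 and 17 in WT clones 15 and 54. With 4-OHT it had 86 and 48 reads in the same KO clones and 86 and 85 in the same WT clones. CBX2 was higher in KO than in WT clones with 4-OHT, by 1.59 ± 0.39 (adjusted p = 0.0367). At the textbook Polycomb-repressed locus CDKN2B rose with 4-OHT in both genotypes, by 1.38 ± 0.29 in KO clones (adjusted p = 0.0051) and 2.07 ± 0.29 in WT clones (0.000957), and CDKN2A was listed at 0 in all 8 libraries. Whether that 0 means no RNA or comes from how reads were assigned to genes was not tested.

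Among lysine 9 enzymes SUV39H2, the paralogue of SUV39H1, had 6.61 and 6.12 RPKM in KO clones with 4-OHT, 2.84 and 2.68 without, 3.90 and 4.14 in WT clones with 4-OHT and 2.50 and 2.67 without. It rose in both genotypes, by 1.18 ± 0.11 (log2, SE) in KO clones (limma adjusted p = 9.62e-05) and 0.62 ± 0.11 in WT clones (0.00272), and was higher in KO than in WT clones with 4-OHT (0.65 ± 0.11, adjusted p = 0.0122). SETDB1, the lysine 9 methyltransferase of euchromatic silencing, and its partner ATF7IP fell in both, SETDB1 by 0.46 ± 0.09 (0.00419) and 0.49 ± 0.09 (0.00388) and ATF7IP by 0.66 ± 0.10 (0.00122) and 0.56 ± 0.10 (0.00328) in KO and WT clones. The lysine 9 list as a whole held 8 tested genes, of which 4 rose and 3 fell in KO clones, and 1 rose and 3 fell in WT clones. As shares these are 87.5% in KO clones, where 55.7% of all genes tested were called, and 50% in WT clones, where 48.9% were. For the difference of the responses 0 of the 8 passed in limma or limma-voom, with 3 at an unadjusted p under 0.05.

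The 3 HP1 genes all rose with 4-OHT in KO clones, where 55.7% of all genes tested were called, 27.9% as higher. The shifts were small, with CBX1 at 0.37 ± 0.08 (log2, SE; limma adjusted p = 0.00694) and CBX3 at 0.34 ± 0.08 (0.00689) beside CBX5 at 0.23. In WT clones CBX1 had 0.17 ± 0.08 (0.133) and CBX3 -0.11 ± 0.08 (0.271). Of the 3 CBX3 passed for the difference of the responses (0.45 ± 0.11, adjusted p = 0.0495), where 7.57% of all genes tested passed. Of the 3 lysine 20 methyltransferases tested 1 rose and 2 fell in each genotype. Over all genes tested 55.7% were called in KO clones and 48.9% in WT clones. KMT5A rose by 0.56 ± 0.08 in KO clones (adjusted p = 0.000875) and 0.28 ± 0.08 in WT clones (0.0271). KMT5C, which HP1 proteins bring to pericentric heterochromatin, fell by 1.16 ± 0.20 in KO clones (adjusted p = 0.00203) and 1.11 ± 0.20 in WT clones (0.00319). Of the 10 histone chaperones tested 4 passed for the difference of the responses, where 7.57% of all genes tested passed. CHAF1A, the large subunit of the assembly factor CAF-1, ASF1B, NASP and CHAF1B differed between responses by 1.72 ± 0.17 (0.00465), 2.56 ± 0.27 (0.00504), 1.31 ± 0.17 (0.0069) and 1.72 ± 0.31 (0.0208).

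**Figure D4:**
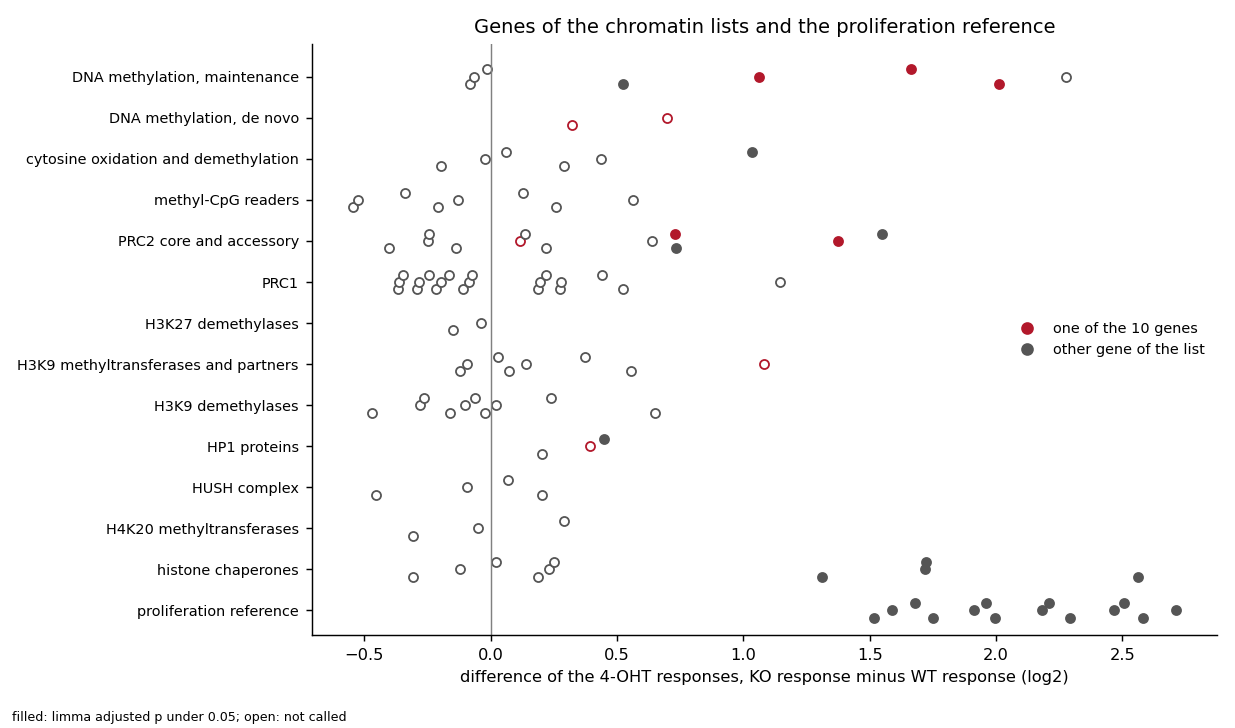
The 4-OHT response in KO clones minus that in WT clones (log2, horizontal axis), for each tested gene of the chromatin lists and of the proliferation reference, 1 point per gene, with the 10 genes in red and vertical spread for legibility only. Filled points passed limma's adjusted p of 0.05, which in the PRC1 list none of 20 did and in the proliferation reference all 14 did.

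**Figure D5:**
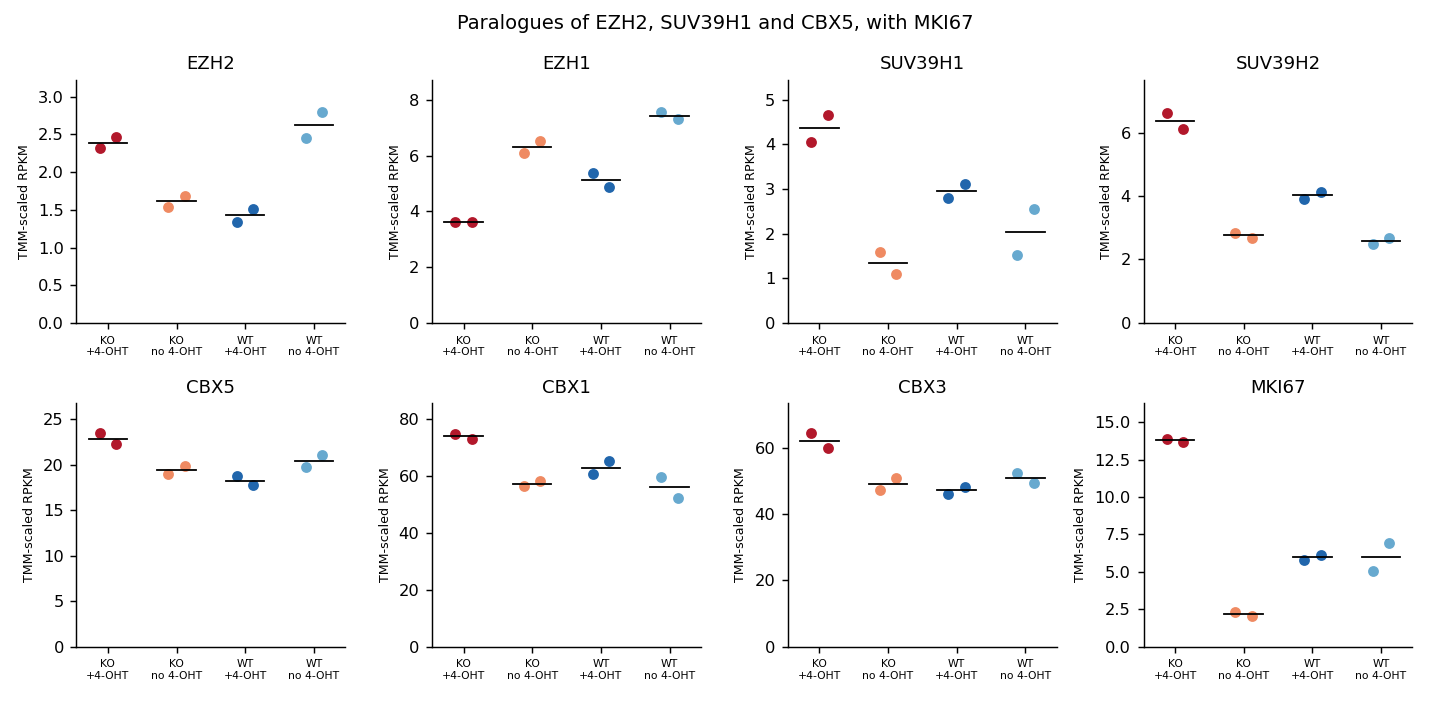
TMM-scaled RPKM (vertical axes, from 0) of EZH2, SUV39H1 and CBX5 beside their paralogues and MKI67 in each library, with 1 point per clone and a bar at the mean. EZH1 is lowest in KO with 4-OHT, at 3.63 and 3.63, where MKI67 is highest, at 13.9 and 13.7. The other ends do not coincide: EZH1 is highest in WT without 4-OHT, at 7.55 and 7.31, and MKI67 is lowest in KO without it, at 2.33 and 2.06.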

How the data were processed

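RNA from 8 libraries of BJ-HRAS fibroblast clones was sequenced with a stranded total RNA kit, per the labels' protocols. STAR, featureCounts and edgeR, with the GRCh38 build, are named in the submitters' processing notes, and what versions, roles, annotation release and strand setting applied is not given in the sources used here. From the authors comes 1 deposited table of 58870 genes, whose values are RPKM. Reads were recovered by multiplying each value by library total and transcript length. The totals were fitted to the values, as those at which reads come out whole. GENCODE release 29 gave the length for most genes. Reads came out whole, to 0.1 read, for 100.0% of values above 0 in those genes, and served for depth, the filter and scaling. Since the totals were fitted for this, the share is not a separate check of them. The lengths used for EED, SUZ12 and CBX5 were 2088, 4495 and 11546 bases, against 2223, 4491 and 11528 in that release. The 45 duplicate rows of pseudoautosomal genes were left out. RPKM values do not allow a count test as the main one.

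Scaling used trimmed-mean (TMM) factors of 0.954 to 1.03. A gene was tested if its total was 15 reads or more and if 2 or more libraries had 0.425 CPM or more, which is 10 reads in a library of median size. On log2(RPKM + 0.1), a scale that understates the change of low genes, the means of the 4 groups were fitted to the 8 libraries together with limma 3.58.1 (R 4.3.3), an intensity trend and robust moderation, leaving 4 residual degrees of freedom. The p-values are two-sided, adjusted by Benjamini-Hochberg over 16542 genes, with 0.05 as threshold. They measure the spread between 2 clones a group. The libraries with and without 4-OHT come from the same clone, so clone numbers pair them. Deviations of paired libraries from their group means correlated at 0.005 for KO clones and 0.309 for WT clones, and the clone as a block was an alternative.

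The members and lists were chosen with earlier results of these data known. All 10 members are named, then SNORA13, the proliferation reference, CDKN2A and CDKN2B, up to 4 called genes per list and comparison with the smallest p, and the genes with the nearest patterns. Copies named SUZ12P1 and the like are also in the rule, while UHRF2, HRAS, TBC1D12 and single marker genes were named after their values were seen. Other alternatives were scaling, pseudocount, filter, limma-voom on recovered reads, fits on 4 libraries and leaving out each library.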

Additional observations from a re-analysis of the deposited data

Results flagged for a closer look

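For 5 of the 10 genes the response to 4-OHT differed between genotypes by a test of the difference itself, the KO response minus the WT response in limma, which called 7.57% of all genes tested in either direction and 4.36% as higher. The log2 difference was 2.01 ± 0.31 (SE) for UHRF1 (adjusted p = 0.0127), 1.66 ± 0.30 for HELLS (0.0203), 1.38 ± 0.21 for EZH2 (0.0115), 1.06 ± 0.21 for DNMT1 (0.0265) and 0.73 ± 0.16 for EED (0.0406). In each of these genes the signed log2 response was higher in both KO clones than in both WT clones. The test used these same clones, so this is no separate support. It held for SUV39H1 as well, which did not pass, and its share over all genes tested was not counted. EZH2 was the only one of the 5 that rose in KO clones and fell in WT clones with both changes called.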

How the results depend on the processing

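Of 660 values of the 10 genes under other settings, 564 kept their direction and their side of the threshold, 75 lost the call, 13 gained one and 8 changed sign. Under other scaling factors and pseudocounts 248 of 250 were kept, 1 lost the call and 1 gained it, and none changed sign. Without the filter 36398 genes were tested, and the calls fell to 0 for KO minus WT with 4-OHT (limma, 7 at an unadjusted p under 0.05), 0 for KO minus WT without 4-OHT (4 unadjusted) and 1 for the difference of the responses. For KO minus WT without 4-OHT, limma-voom gave 2 calls and the limma fit on 4 libraries 0 (5 unadjusted). With the replicate block (clone), 7 genes were called in KO clones, 3 in WT clones and 5 for the difference of the responses, so that it ended the calls of CBX5 and DNMT3B and no other. Leaving out 1 of the libraries compared left 5 to 6 calls in KO clones, 2 to 5 in WT clones, 0 to 2 for KO minus WT with 4-OHT, 0 to 3 without it and 0 to 6 for the difference of the responses. The lone library of a group is then assumed to vary like the others. Without 1 library outside the comparison, 8 to 9 were called in KO clones, 3 in WT clones, 3 to 5 for KO minus WT with 4-OHT and 0 without it (limma, 4 to 5 unadjusted), and the cause of each lost call was not tested.

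All 8 changes of sign were in comparisons that did not pass in the fit of all 8 libraries. With 1 library left out, SUZ12 for KO minus WT without 4-OHT ran between -0.043 and 0.136, and DNMT3B in KO clones between -0.019 and 0.13, with -0.01 in another fit. In WT clones DNMT1 ran between -0.021 and 0.412, HELLS between -0.457 and 0.07, with 0.052 in another fit, and UHRF1 between -0.143 and 0.51, with -0.025 in another fit. DNMT3B had 21 to 42 reads a library, and each group held 2 clones.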

Other observations

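A list of 10 germline genes that promoter methylation keeps silent in somatic cells was read beside the methyltransferases. None passed the filter, 5 had 0 reads in all 8 libraries and none reached 10 reads in any library. SYCP3, at 2 to 7 reads a library, was the highest of the 10. At this depth no response of these genes was tested.

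LMNB1, a lamin of the nuclear periphery where heterochromatin is tethered, had 19.3 and 20.6 RPKM in KO clones with 4-OHT, 6.22 and 6.86 without, 5.94 and 8.74 in WT clones with 4-OHT and 12.5 and 16.7 without. It rose by 1.60 ± 0.20 (log2, SE) in KO clones (limma adjusted p = 0.000383) and fell by 1.00 ± 0.20 in WT clones (0.0047), and the responses differed (2.59 ± 0.28, adjusted p = 0.00504). HMGB2, a chromatin protein of the high mobility group, had 37.4 and 45.7 RPKM in KO clones with 4-OHT, 22.1 and 19.8 without, 16.2 and 20.1 in WT clones with 4-OHT and 43.2 and 58.2 without. It rose by 0.98 ± 0.17 in KO clones (adjusted p = 0.00223) and fell by 1.47 ± 0.17 in WT clones (0.000428), and the responses differed (2.45 ± 0.24, adjusted p = 0.00465). Both thus moved in the directions of EZH2, in each genotype. How many of all genes tested did so was not counted. LMNB1 and HMGB2 were chosen after results of these data were known, so this match is no support for the EZH2 result.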
